A study of Nannospalax ehrenbergi and Mus musculus with 25 samples.

Results

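The mechanistic target of rapamycin (mTOR) is a protein kinase that matches cell growth to nutrients, growth factors and energy. Its gene, Mtor, was followed here together with the genes of its partner proteins and of its best known upstream brakes, in neck tissue of the blind mole rat Spalax, a long-lived subterranean rodent, and of the house mouse. The 10 genes were picked by symbol for their roles in the pathway, with earlier results of these data known. They were Mtor, Rptor, Rictor, Mlst8, Akt1s1, Deptor, Ddit4, Ddit4l, Tsc1 and Tsc2. Each had 1 row among the 27988 genes measured in Spalax and 1 among the 47593 measured in mouse, and all 10 passed the filter on low values in every comparison.

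The kinase works in a pair of complexes. mTORC1 holds the scaffold protein of Rptor and promotes protein synthesis, while mTORC2 holds that of Rictor and phosphorylates Akt. Mlst8 is a subunit of both, and the products of Akt1s1 and Deptor are subunits that hold the kinase back. The proteins of Tsc1 and Tsc2 form a complex that switches off Rheb, the activator of mTORC1. Ddit4 (also called Redd1) and its relative Ddit4l are induced by stresses such as hypoxia, DNA damage and glucocorticoids, and they restrain mTORC1 through that complex. In skeletal muscle the pathway is known for setting fiber size, and in many tumors it is active.

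RNA-seq had been made from 25 libraries. The Spalax groups were untreated controls (n = 4), tolerant animals sampled on the injected side without a tumor 18 or 30 months after 1 mg of the carcinogen 3-methylcholanthrene (3MCA) in 500 µl (n = 4), and the injected side (IS) and uninjected side (UIS) of the neck of 2 animals with a benign granuloma, 600 and 976, at 14 and 16 months, and of 2 with a fibrosarcoma, 2240 and 2230, at 18 and 30 months. The mouse groups were C57BL/6 controls (n = 3) and the IS and UIS of 3 mice, 1019, 1023 and 512, with a fibrosarcoma 14, 12 and 11 weeks after 200 µg 3MCA in 200 µl. Spalax were wild-caught, of an estimated age of 2 to over 10 years, and mice were 3 to 4 months old. The IS libraries of animals with a growth were made from the excised growth, and all other libraries came from neck muscle. Controls and tolerant animals carried dual index sequences and animals with a growth single ones, so the index cannot be told apart from the contrast of UIS with control in either species. The handling differed along the same line in Spalax, since untreated controls were biopsied under anesthesia and survived, whereas animals with tumors were sampled after breathing had stopped. Spalax controls were all female, tolerant animals 3 males and 1 female, animals with growths 3 females and 1 male, and all mice were male.

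Levels are given as normalized read counts, that is, read counts divided by 1 size factor per library. The libraries held 17025447 to 23386729 reads in Spalax and 22143060 to 31179183 in mouse, and a value of 10 rested on 7.03 to 16.7 reads in Spalax and 6.95 to 19.3 in mouse. The Spalax and mouse tables had been scaled separately, so levels were not tested between the species. In bulk tissue, fewer cells of a type and less RNA per cell cannot be told apart. The labels call the tissue muscle on both sides, which was checked against markers. The 5 of 7 markers listed in Spalax summed to 710202 to 2633231 in the 12 muscle libraries and to 360.1 to 5741 in the 4 growths, and the 7 of 7 in mouse to 954409 to 3832308 in muscle and 157.6 to 54092 in the tumors. None of them was at 0 in a growth, but the growths held little muscle RNA. The 5 of 5 fibroblast markers moved the other way, with sums of 6562 to 160001 in Spalax muscle, 56973 to 358920 in the fibrosarcomas, 661556 to 1548461 in the granulomas, 3799 to 46672 in mouse muscle and 97983 to 128869 in mouse tumors. The 3 of 3 proliferation markers summed to 61.3 to 315.3 in Spalax muscle, 4309 to 10702 in its growths, 20.2 to 1031 in mouse muscle and 9837 to 12550 in mouse tumors. The 4 of 5 leukocyte markers listed in Spalax summed to 466.4 to 10584 in muscle and 4823 to 14260.4 in growths, and the 5 of 5 in mouse to 260.6 to 2820.0 and 3504 to 22998. The 3 of 3 endothelium markers were lower in Spalax growths, 2132 to 4063 against 5813 to 10885, and overlapped in mouse, 1114 to 7907 against 5903 to 13496. Of fat markers, the UIS of 2230 held the most brown fat RNA in Spalax, 18052 against at most 91.1 in the other muscle libraries, and the 3 of 3 white fat markers summed to 493.5 to 5313 in Spalax muscle, 42.1 to 1076 in its growths and 10.53 to 47.0 in mouse tumors. Mouse muscle held fat RNA too. Its brown fat markers summed to 34925 to 56476 in controls and 12.96 to 19228 on the UIS. The white fat markers summed to 13522 to 41326 in mouse controls and 3924 to 20577 on the UIS. These shifts accompanied every difference between IS and UIS given below, and their part in those differences was not tested.

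The mouse genes could be placed on the mouse assembly GRCm38 with its GENCODE annotation. Mtor lies at chr4:148448611-148557683 (+ strand), Rptor at chr11:119602905-119899576 (+), Rictor at chr15:6708379-6800401 (+) and Mlst8 at chr17:24473551-24479078 (-). Akt1s1 lies at chr7:44848991-44855421 (+) and Deptor at chr15:55112317-55259271 (+). The stress-induced genes are at chr10:59949669-59951834 (-) for Ddit4 and chr3:137621612-137628333 (+) for Ddit4l, and the TSC genes at chr2:28641228-28691167 (+) for Tsc1 and chr17:24595816-24632630 (-) for Tsc2. Some exon bases also lie under a gene of the opposite strand, 22.48% for Mlst8 (under Bricd5) and 7.20% for Tsc2 (under Pkd1), and under 4% for the others. The kit kept the strand, but the strand setting of the read counting is not given in the sources used here, so the values of Mlst8 and Tsc2 may hold reads of those neighbours. The mouse control libraries also held fat marker RNA, as given above, and its part in their levels was not tested. In mouse control muscle, as RPKM (reads scaled by the length of exon and by the depth of the library), Ddit4l had the highest level at 87.7 ± 33.1 (SD, n = 3), ahead of Akt1s1 at 32.7 ± 4.04. Deptor at 19.1 ± 4.89 and Ddit4 at 19.0 ± 8.46 did not differ beyond their spread, nor did Tsc2 at 8.38 ± 1.20 and Mtor at 7.49 ± 2.56. Tsc1 followed at 4.22 ± 1.16, overlapping with Rptor at 3.24 ± 0.672, which overlapped with Mlst8 at 2.74 ± 0.211, and Rictor was lowest at 1.56 ± 0.376. By mean, the inhibitory and stress-induced genes were thus listed above the scaffold genes, though Tsc1 did not differ from Rptor beyond the spread. The length was that of all annotated exon bases, 13471 for Rptor and 16930 for Rictor, whichever of them were transcribed.

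**Figure D1:**
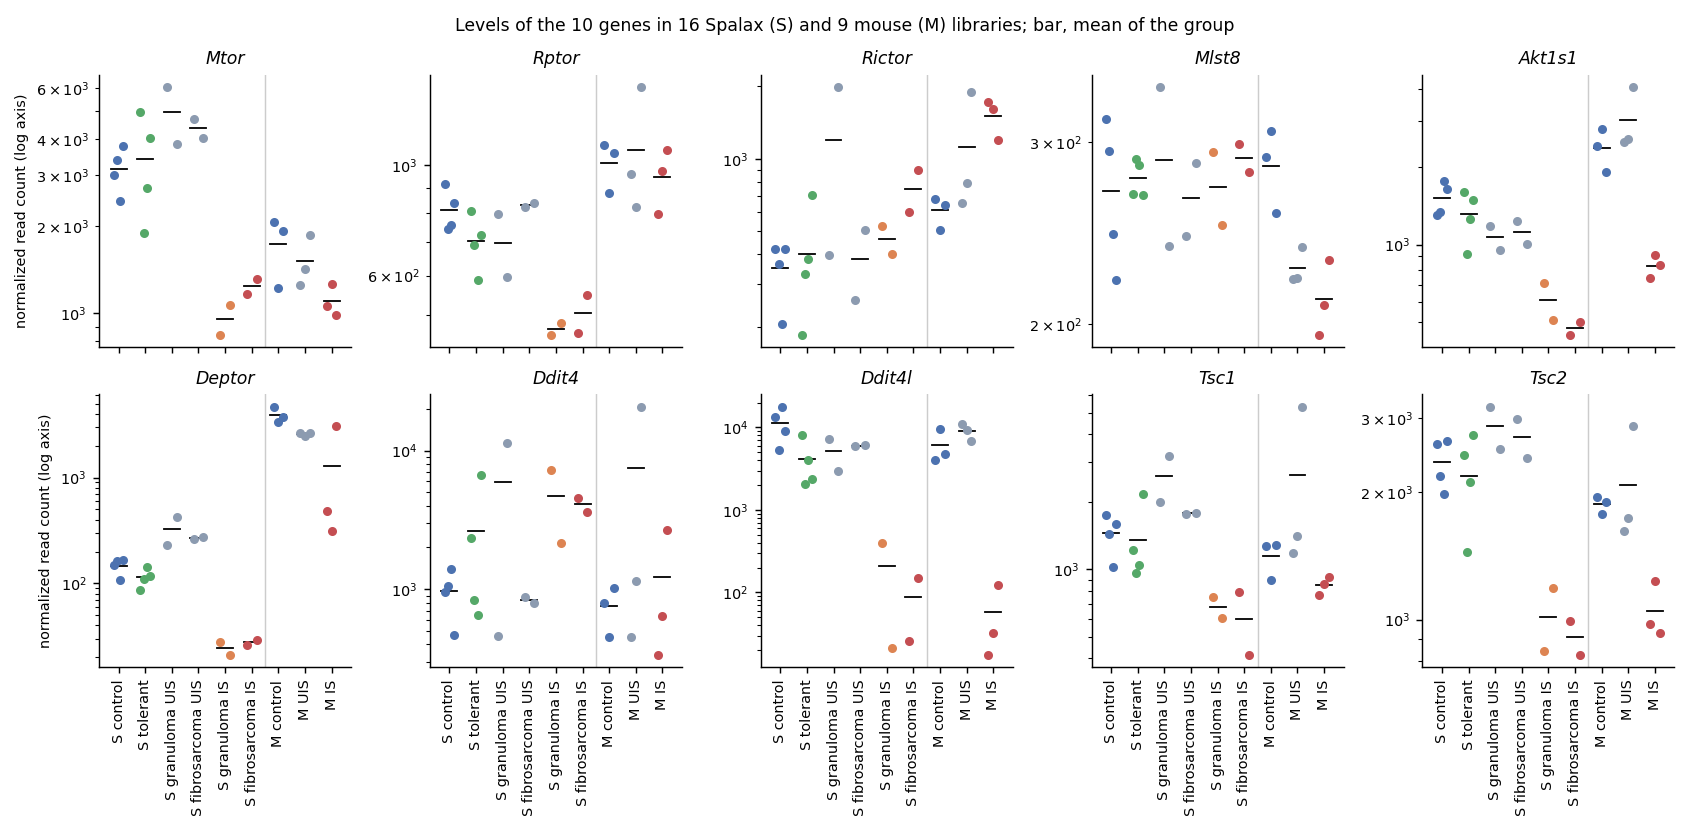
Normalized read count (log axis) of each of the 10 genes in every library, with the groups on the x axis, 1 point per library and a bar at the group mean. Mtor, Deptor, Ddit4l, Tsc1 and Tsc2 lie lower in the Spalax granulomas and fibrosarcomas (orange and red) than in all Spalax muscle libraries, Mlst8 spans 220.8 to 338.9 over all 16 Spalax libraries, and Ddit4 has single high libraries. The scales of the species were set separately.

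The first question was how these genes differed between the growth and the uninjected muscle of the same animals. In granuloma, 5 of the 10 genes were called lower in IS than in UIS and none higher, at an adjusted p of at most 0.05 (limma on log2 of the value plus 1, Benjamini-Hochberg over all 14735 genes tested). Over all genes, 24.3% were called, and 12.6% were called lower. In fibrosarcoma, 6 were called lower and 1, Ddit4, higher, where 36.3% of 14696 genes were called and 19% called lower. Both Spalax counts came from 2 libraries a side. Leaving out 1 leaves a single library on its side and little to measure the spread by. This holds for all 2-against-2 calls lost or gained below. In fibrosarcoma the number of calls fell or rose with the library left out, and the reason was not tested. The fold changes of the called genes kept their sign without any 1 library. In fibrosarcoma, Mtor stayed at -1.92 to -1.71 and Deptor at -3.29 to -3.17, while Ddit4l in granuloma ranged from -7.71 to -3.56. Over all genes, 3581 were called in granuloma, which became 98 without the IS library of 976 and 224 without that of 600, 1190 without the UIS library of 976 and 2882 without that of 600. The 5339 in fibrosarcoma became 0 without either UIS library and 8290 or 8397 without the IS library of 2230 or 2240. In mouse, 3 were called lower, where 45.1% of 15220 genes were called and 22.3% called lower. With the 4 Spalax animals fitted together and the diagnosis as a term, 7 were called lower, where 51.4% of 14431 genes were called and 25.9% called lower. The median log2 fold change of the 10 genes was -1.23 in granuloma, -1.40 in fibrosarcoma, -1.28 over the 4 Spalax animals and -1.12 in mouse, and that of all genes tested was -0.01, 0.03, 0.01 and 0.11. These fold changes are relative to the middle of all genes. Scaling by total reads instead moved the median of all genes up by 0.74, 0.80, 0.77 and 1.06 in granuloma, fibrosarcoma, the 4 Spalax animals together and mouse, and with it 3, 5, 6 and 6 of the genes were called. Those were 3 lower in granuloma, 3 lower and 2 higher (Rictor and Ddit4) in fibrosarcoma, 5 lower and 1 higher (Mlst8) over the 4 Spalax animals, and 2 lower and 4 higher in mouse. Of all genes, that scaling called 4541 of 14929, 6939 of 14983, 8730 of 14638 and 9576 of 15841 in the same order. Of these, 1123, 1654, 2121 and 1641 were lower.

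**Figure D2:**
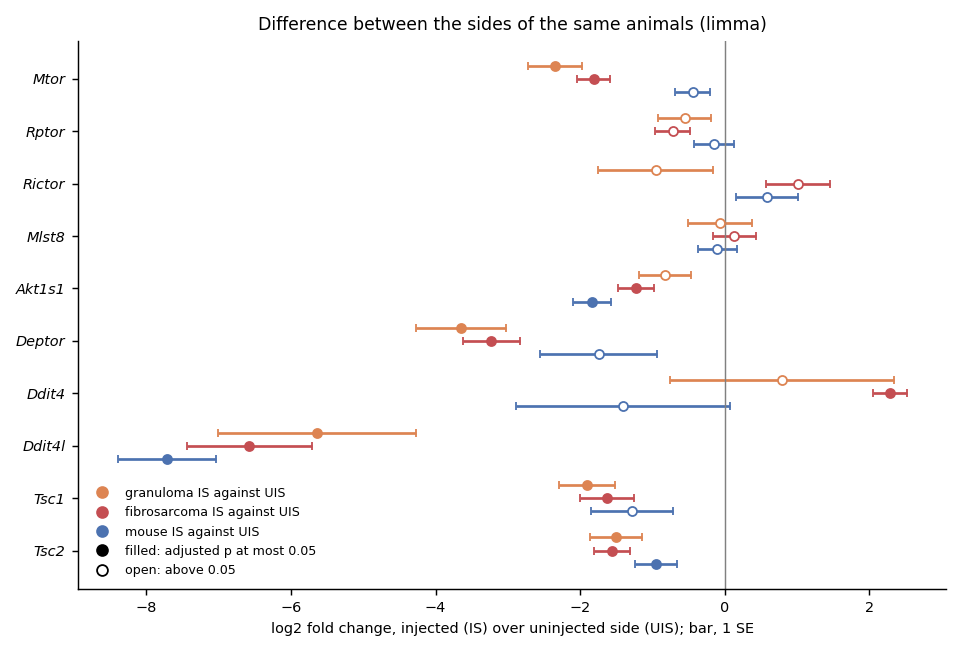
Log2 fold change of IS over UIS (x axis) for the 10 genes in granuloma (orange), fibrosarcoma (red) and mouse (blue), with bars of 1 SE and filled points where the limma adjusted p was at most 0.05. Ddit4l has the lowest point in all 3 comparisons and Ddit4 in fibrosarcoma is the only filled point above 0. Scaled by total reads, Tsc2 in mouse turns to 0.11, Mtor to 0.62 and Mlst8 to 0.96, and Rptor turns above 0 in all 3.

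Mtor, the kinase itself, had normalized read counts of 3008, 3388, 2444 and 3784 in the Spalax controls, 4953, 1902, 2703 and 4046 in the tolerant animals, 6059 and 3841 in the UIS of granuloma and 4697 and 4049 in the UIS of fibrosarcoma. The injected sides held 842 in 600 and 1065 in 976 (granuloma), and 1168 in 2230 and 1313 in 2240 (fibrosarcoma). No growth reached the lowest of the 12 muscle libraries, a tolerant animal at 1902. By limma the log2 fold change was -2.35 (SE 0.38, adjusted p = 0.0158) in granuloma, -1.82 (SE 0.22, adjusted p = 0.00821) in fibrosarcoma and -2.08 (SE 0.23, adjusted p = 0.000195) over the 4 Spalax animals. In granuloma the adjusted p was 0.129 without the IS library of 600 and 0.116 without that of 976. In fibrosarcoma it was 0.119 without the UIS library of 2240 and 0.147 without that of 2230. Over the 4 animals the call held without any 1 library (fold change -2.18 to -1.90), and by total reads it was -1.31 (adjusted p = 0.00191). The kinase gene was therefore measured at 3.08 to 7.20 times the growth's level in the muscle of the same Spalax.

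In mouse, Mtor was 2065, 1218 and 1918 in controls, 1250.4 in 1019, 1427 in 1023 and 1870.1 in 512 on the UIS, and 1062 in 1019, 1259 in 1023 and 986 in 512 on the IS. Its muscle level was 1.13 to 1.90 times that of the tumor of the same mouse, and the libraries of the sides overlapped, since the IS of 1023 was above the UIS of 1019. For the 3 mice the log2 fold change was -0.45 (SE 0.24, adjusted p = 0.17), and scaled by total reads it was 0.62 (adjusted p = 0.0329), of the opposite sign and called. Whether the change of side differed between Spalax fibrosarcoma and mouse was tested as an interaction over the 11085 genes shared by symbol and tested in both species, of which 3.95% were called. None of the 10 genes was among them. Mtor had the smallest adjusted p, with a difference of -1.37 (SE 0.34, adjusted p = 0.0608) on the log2 scale. DESeq2 gave it an adjusted p of 0.00141, edgeR 0.0515, scaling by total reads 0.0239 and a block for the animal 0.147. Without the UIS library of mouse 512 the limma value was -1.53 (adjusted p = 0.0266).

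Rptor, the scaffold of mTORC1, differed less between the tissues. It ranged from 589 to 915 in the 12 Spalax muscle libraries and was 457 and 482 in the granulomas and 461 and 549 in the fibrosarcomas, so that the ranges of muscle and growth did not overlap. On the log2 scale IS differed from UIS by -0.55 (SE 0.36, adjusted p = 0.303) in granuloma and -0.72 (SE 0.24, adjusted p = 0.0786) in fibrosarcoma, and -0.64 (SE 0.19, adjusted p = 0.0247) over the 4 animals, where scaling by total reads turned it to 0.14 (adjusted p = 0.581). That call was also lost with a block for the animal (adjusted p = 0.0556) and without the IS library of 600 (0.0554) or 2230 (0.0556) or the UIS library of 600 (0.0714), 2240 (0.0816) or 2230 (0.075). In mouse, Rptor was 957, 822 and 1431 on the UIS and 796, 972 and 1070.1 on the IS. The sides overlapped, with a fold change of -0.15 (SE 0.28, adjusted p = 0.692), and 0.92 (adjusted p = 0.0103) by total reads.

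Rictor, which defines mTORC2, had the second widest spread among the Spalax muscle libraries, with a coefficient of variation of 94.3%. It was 421, 364, 205 and 421 in controls, 185 in 2218, 333 in 2251, 381 in 2261 and 709 in 2375 (tolerant), 398 in 600 and 1988 in 976 (granuloma UIS), and 259 in 2230 and 507 in 2240 (fibrosarcoma UIS). The injected sides held 523 in 600 and 401 in 976 (granuloma), and 599 in 2230 and 894 in 2240 (fibrosarcoma). Apart from the UIS library of 976, the highest muscle value was 709.0, and the growths overlapped with muscle. Within each animal, IS was 1.31 times UIS in 600, 2.32 times in 2230 and 1.76 times in 2240, and 0.201 times in 976. Granuloma gave a log2 fold change of -0.96 (SE 0.79, adjusted p = 0.405), and without the UIS library of 600 it was -2.12 (adjusted p = 0.0424). In fibrosarcoma it was 1.01 (SE 0.44, adjusted p = 0.141), and among the alternatives with all libraries it was called only when scaled by total reads, at 1.82 (adjusted p = 0.0355).

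In mouse, Rictor was 683, 507 and 642 in controls, 655 in 1019, 792 in 1023 and 1902 in 512 on the UIS and 1714 in 1019, 1614 in 1023 and 1193 in 512 on the IS. All 3 tumors lay above 5 of the 6 muscle libraries, and the exception was the UIS of 512. Together the mice gave 0.58 (SE 0.43, adjusted p = 0.306) on the log2 scale, and without that library it was 1.05 (adjusted p = 0.019). By total reads it was 1.65 (adjusted p = 0.00876).

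Mlst8, the small subunit that both complexes share, was the steadiest of the 10 genes. It spanned 220.8 to 338.9 over the 16 Spalax libraries, a ratio of 1.53, and 195.4 to 307.4 over the 9 mouse libraries, a ratio of 1.57. The mean was 274 ± 34.2 (SD, n = 12) in Spalax muscle and 280.4 ± 22.0 (SD, n = 4) in its growths, which overlapped. The fold changes of IS against UIS were -0.07 (SE 0.44, adjusted p = 0.922) in granuloma, 0.13 (SE 0.30, adjusted p = 0.751) in fibrosarcoma and -0.10 (SE 0.27, adjusted p = 0.776) in mouse. Scaled by total reads, the value over the 4 Spalax animals was 0.80 (adjusted p = 0.0216) and that in mouse 0.96 (adjusted p = 0.0246), both near the shift of all genes.

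Ratios of genes within a library do not depend on the scaling. The log2 ratio of Mtor to Mlst8 was 2.72 to 4.27 in the 12 Spalax muscle libraries and 1.52 to 2.23 in the 4 growths, and that of Mtor to Rptor was 1.46 to 2.93 and 0.88 to 1.34. Neither pair of ranges overlapped. In mouse, Mtor to Mlst8 was 1.99 to 2.98 in muscle and 2.10 to 2.59 in tumors and overlapped, and Mtor to Rptor, at 0.39 to 0.92 and -0.12 to 0.42, overlapped too. The log2 ratio of Rictor to Mtor lay higher in the growths, at -1.41 to -0.55 in Spalax against -4.74 to -0.95 in muscle, which overlapped at the UIS of 976, and at 0.27 to 0.69 in mouse tumors against -1.60 to 0.02 in muscle, which did not overlap. Rictor to Rptor was -0.27 to 0.70 in Spalax growths and -2.12 to 1.74 in muscle, again with overlap.

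**Figure D3:**
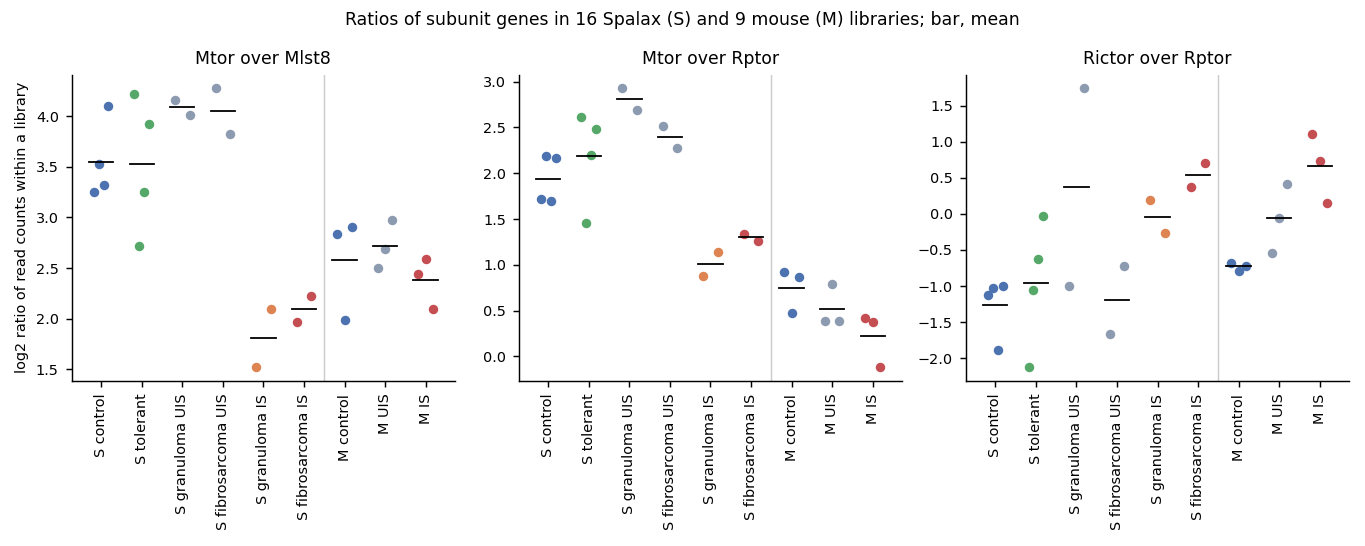
Log2 ratio of the read counts of a pair of subunit genes within each library (y axis), with the groups on the x axis, 1 point per library and a bar at the mean. Mtor over Mlst8 is at most 2.23 in the 4 Spalax growths and at least 2.72 in Spalax muscle, while the mouse groups overlap, and the UIS library of Spalax 976 stands out in Rictor over Rptor at 1.74.

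Akt1s1, which encodes the inhibitory mTORC1 subunit PRAS40, was called lower in both fibrosarcoma comparisons. In mouse it was 2492, 2557 and 4066 on the UIS and 739, 912 and 834 on the IS, with 2396, 2794 and 1908 in controls. The tumors lay below all 6 muscle libraries, and the fold change was -1.84 (SE 0.26, adjusted p = 0.00357) and -0.77 (adjusted p = 0.0142) by total reads, with the call kept without any 1 library. In Spalax it was 1237 and 1003 on the UIS and 447 and 500.4 on the IS of fibrosarcoma, a fold change of -1.23 (SE 0.25, adjusted p = 0.024). In granuloma it was 1184 and 956 against 708 and 509, with -0.82 (SE 0.36, adjusted p = 0.151). Spalax muscle ranged from 921 to 1761, above all 4 growths. By total reads fibrosarcoma was at -0.43 (adjusted p = 0.188), no longer called, and the call was also lost without the UIS library of 2240 (0.169) or 2230 (0.244).

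Deptor, the inhibitory subunit of both complexes, was low in Spalax growths. The values were 233 in 600 and 423 in 976 on the UIS and 27.6 in 600 and 21.1 in 976 on the IS for granuloma, and 263 in 2230 and 272 in 2240 on the UIS and 26.4 in 2230 and 28.9 in 2240 on the IS for fibrosarcoma. Controls held 149, 164, 109 and 165 and tolerant animals 85.9, 110.4, 142 and 118, so all 12 muscle libraries were above all 4 growths. Muscle held 8.44 to 20.0 times the growth's level in the same animal. In log2 terms the difference was -3.64 (SE 0.62, adjusted p = 0.0178) in granuloma, -3.23 (SE 0.39, adjusted p = 0.00794) in fibrosarcoma and -3.44 (SE 0.34, adjusted p = 0.000118) over the 4 animals. The granuloma call was lost without the IS library of 600 (0.112) or 976 (0.131) or the UIS library of 976 (0.0736), and the fibrosarcoma call without the UIS library of 2240 (0.142) or 2230 (0.158), while over the 4 animals it held without any 1 library.

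In mouse, Deptor was lower on the IS in 2 of 3 animals. It was 2668 in 1019, 2472 in 1023 and 2660.5 in 512 on the UIS and 481 in 1019, 313 in 1023 and 3081 in 512 on the IS, and the tumor of 512 was above its own muscle. Fitted over the 3 mice, the difference was -1.75 (SE 0.81, adjusted p = 0.122), and without the IS library of 512 it was -2.74 (adjusted p = 0.00388). That tumor also held the most muscle marker RNA of the 3, 54092 against 18539 and 157.6, and the part of this in the Deptor value was not tested.

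**Figure D4:**
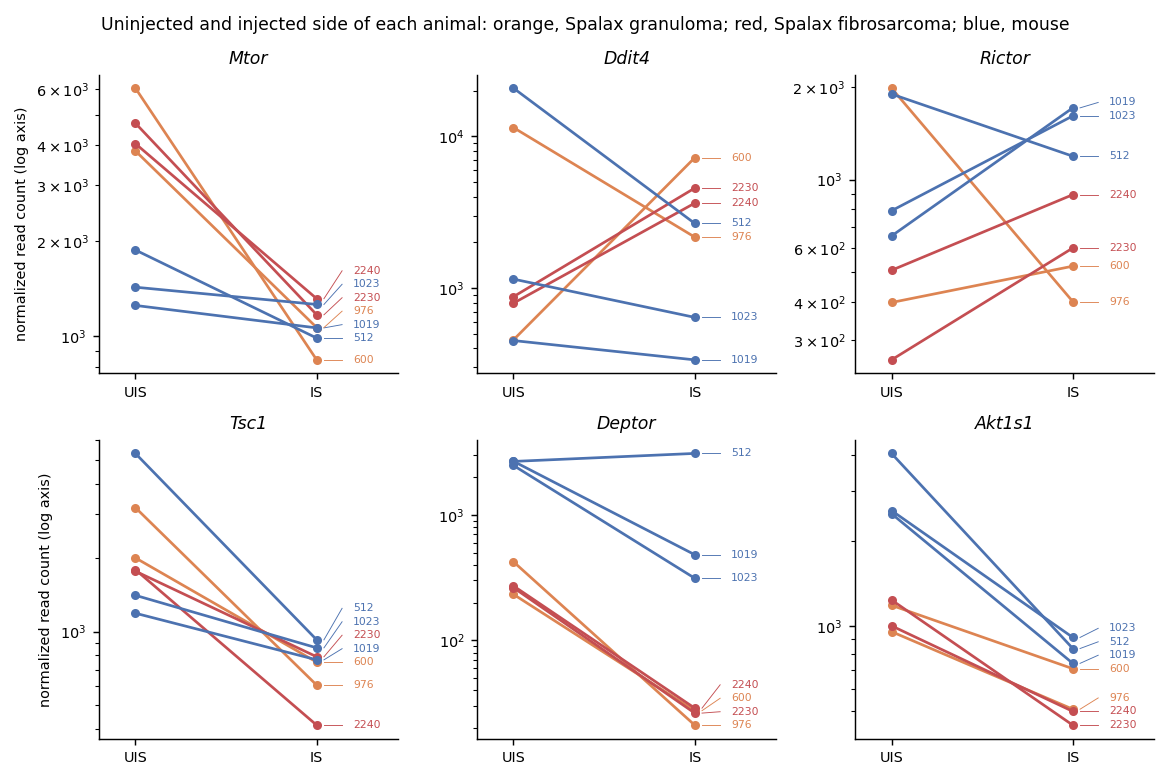
Normalized read count (log axis) on the UIS and IS of each animal for 6 of the genes, with a line per animal (orange, Spalax granuloma; red, Spalax fibrosarcoma; blue, mouse). Ddit4 is higher on the IS in Spalax 600, 2230 and 2240 and lower in 976 and the 3 mice, Rictor is lower on the IS in 976 and mouse 512, and Deptor is higher on the IS in mouse 512. The order of Spalax against mouse levels is not tested.

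Ddit4, the stress-induced brake on mTORC1, was the only one of the 10 genes called higher in a growth by limma on the normalized counts of all libraries compared. By total reads, others were called higher too: Rictor in fibrosarcoma, Mlst8 over the 4 Spalax animals, and Mtor, Rptor, Rictor and Mlst8 in mouse. In fibrosarcoma it was 877 in 2230 and 795 in 2240 on the UIS and 4558 in 2230 and 3626 in 2240 on the IS, 5.20 and 4.56 times higher on the IS. The log2 fold change was 2.28 (SE 0.24, adjusted p = 0.00598), and edgeR gave an adjusted p of 0.00952 and DESeq2 2.54e-08. With 1 model over all 16 Spalax libraries, which shares the spread of groups where Ddit4 varied widely, the adjusted p was 0.155, and it was 0.116 and 0.123 without the UIS library of 2240 and of 2230. In granuloma the animals went opposite ways. Ddit4 was 456 in 600 and 11409 in 976 on the UIS and 7225 in 600 and 2167 in 976 on the IS, 15.9 times higher on the IS of 600 and 5.27 times lower on that of 976. Fitted together, the granuloma animals gave 0.79 (SE 1.55, adjusted p = 0.732) and the 4 animals 1.54 (SE 0.92, adjusted p = 0.192), which became 2.62 (adjusted p = 0.00236) without the UIS library of 976.

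In mouse, Ddit4 was 451 in 1019, 1146 in 1023 and 20759.6 in 512 on the UIS and 336 in 1019, 641 in 1023 and 2666 in 512 on the IS. On this scale it was lower on the IS in 3 of 3 mice, by 1.34, 1.79 and 7.79 times. As a share of total reads, 1019 was higher on the IS (651 of 24639207 reads) than on the UIS (373 of 22143060). In 1023 the shares were nearly equal, at 1081 of 23743505 and 1111 of 24353788. The spread between mice was larger than the difference of sides, with a fold change of -1.41 (SE 1.48, adjusted p = 0.467). Without the UIS library of 512 it was 0.21 (adjusted p = 0.869). The difference of the changes between Spalax fibrosarcoma and mouse was 3.69 (SE 2.01, adjusted p = 0.328) by limma, and the adjusted p was 0.0446 by DESeq2, 0.207 by edgeR and 0.092 with a block for the animal. The difference between fibrosarcoma and granuloma was 1.49 (SE 1.87, adjusted p = 0.946), and it turned to -0.83 without the granuloma UIS library of 976.

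Among muscle libraries, Ddit4 varied most of the 10 genes, with a coefficient of variation of 143.2% over the 12 Spalax and 198.8% over the 6 mouse libraries. It was 958, 1056, 1395 and 469.5 in Spalax controls, 2354 in 2218, 830.3 in 2251, 651 in 2261 and 6701 in 2375 in tolerant animals and 801, 454 and 1025 in mouse controls. The UIS library of Spalax 976 was 25.03 times the lowest Spalax muscle library and that of mouse 512 was 46.0 times the lowest mouse one. The same libraries were the highest muscle libraries of their species for Rictor, at 1988 and 1902, and for Tsc1, at 3198 and 5315, which was noticed after the values were seen. The UIS of 976 had the lowest muscle marker sum of the 12, 710202, near the tolerant animal 2251 at 718031, and the UIS of 512 the highest of the 6, 3832308. Their part in these values was not tested.

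Ddit4l had the largest difference of the 10 genes in every comparison of sides. It was 7250.2 in 600 and 2968 in 976 on the UIS and 393 in 600 and 21.1 in 976 on the IS of granuloma, and in fibrosarcoma 5888 in 2230 and 6177 in 2240 on the UIS and 25.8 in 2230 and 149 in 2240 on the IS. In mouse it was 11143 in 1019, 9391 in 1023 and 6879 in 512 on the UIS and 17.6 in 1019, 32.6 in 1023 and 123 in 512 on the IS. Controls held 13226, 5333, 17809.8 and 9055 in Spalax and 4031, 9651 and 4813 in mouse, so no growth came near a muscle library. The level in muscle was 18.4 to 228.4 times that in the Spalax growth of the same animal, and 56.1 to 634.1 times in mouse. Its log2 fold change was -5.63 (SE 1.37, adjusted p = 0.0393) in granuloma, -6.57 (SE 0.86, adjusted p = 0.00906) in fibrosarcoma, -6.10 (SE 0.90, adjusted p = 0.000847) over the 4 Spalax animals and -7.72 (SE 0.68, adjusted p = 0.00131) in mouse. In granuloma edgeR gave an adjusted p of 0.0799 and the fit with no filter 0.0578, and the call was lost without the UIS library of 600 (0.158) or either library of 976 (0.103 for IS, 0.136 for UIS). The fibrosarcoma call was lost without the UIS library of 2240 (0.128) or 2230 (0.142), and the mouse call held without any 1 library. Ddit4 and Ddit4l thus moved in opposite directions between the sides of fibrosarcoma.

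Both TSC genes were lower in Spalax growths. Tsc1 was 1996 in 600 and 3198 in 976 on the UIS and 751 in 600 and 605 in 976 on the IS of granuloma, and in fibrosarcoma 1761 in 2230 and 1787 in 2240 on the UIS and 789 in 2230 and 416 in 2240 on the IS. Tsc2 was 3186 and 2537 on the UIS against 844 and 1188 on the IS of granuloma, and 2979.8 and 2413 against 995 and 826 in fibrosarcoma. The 12 muscle libraries ranged from 960.1 to 3198 for Tsc1 and from 1447 to 3186 for Tsc2, above all 4 growths in both cases. For Tsc1 the fold change was -1.91 (SE 0.38, adjusted p = 0.0254) in granuloma, -1.63 (SE 0.37, adjusted p = 0.0322) in fibrosarcoma and -1.77 (SE 0.26, adjusted p = 0.000893) over the 4 animals. For Tsc2 these values were -1.50 (SE 0.35, adjusted p = 0.0364), -1.56 (SE 0.25, adjusted p = 0.0136) and -1.53 (SE 0.20, adjusted p = 0.000452). Over the 4 animals both calls held without any 1 library and by total reads, where Tsc1 was -0.99 (adjusted p = 0.0131) and Tsc2 -0.76 (adjusted p = 0.0143). In the comparisons of 2 against 2 animals they did not hold by total reads (adjusted p of 0.0655 and 0.148 for Tsc1, 0.173 and 0.058 for Tsc2), and for Tsc2 in granuloma the block for the animal gave 0.0613 and edgeR 0.0613. The log2 ratio of Tsc2 to Tsc1 overlapped between Spalax muscle, -0.33 to 1.02, and its growths, 0.17 to 0.99.

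Leaving out 1 library ended the 2-against-2 calls in several cases. For Tsc1 in granuloma the adjusted p was 0.135 and 0.178 without the IS library of 600 and 976 and 0.0676 without the UIS library of 976, and for Tsc2 it was 0.225, 0.158 and 0.0737 and also 0.0772 without the UIS library of 600. In fibrosarcoma it was 0.221 and 0.132 for Tsc1 and Tsc2 without the UIS library of 2240 and 0.238 and 0.181 without that of 2230.

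In mouse, Tsc1 was 1187 in 1019, 1405 in 1023 and 5315 in 512 on the UIS and 767 in 1019, 858 in 1023 and 925 in 512 on the IS, with no overlap and a fold change of -1.29 (SE 0.57, adjusted p = 0.106), which became -0.61 (adjusted p = 0.0422) without the UIS library of 512. DESeq2 called Tsc1 with all libraries, at -1.66 (adjusted p = 0.0209), while edgeR gave -1.67 (adjusted p = 0.0649) and scaling by total reads -0.22 (adjusted p = 0.704). Tsc2 was 1624 in 1019, 1739 in 1023 and 2874 in 512 on the UIS and 976 in 1019, 1234 in 1023 and 928 in 512 on the IS, also with no overlap. Its fold change was -0.95 (SE 0.29, adjusted p = 0.0358), and 0.11 (adjusted p = 0.668) by total reads, of the opposite sign. The Tsc2 call was also lost with a block for the animal (0.0644), with no filter (0.0574), and without the IS library of 1019 (0.101), 1023 (0.066) or 512 (0.0919) or the UIS library of 1023 (0.0681).

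The second question was whether granuloma and fibrosarcoma differed. For the change from UIS to IS, none of the 10 genes and 0% of the 15584 genes tested were called by limma, with 766 genes and none of the 10 at an unadjusted p under 0.05, 0 genes by edgeR and 88 by DESeq2, none of them among the 10. The fitted difference for Rictor was 1.97 (SE 1.03, adjusted p = 0.946), and without the granuloma UIS library of 976 it was 0.81. Between the IS libraries themselves, 0% of 14562 genes were called by limma and by edgeR, and DESeq2 called 153 and none of the 10. Here 4.06% of genes and none of the 10 had an unadjusted p under 0.05. The 2 fibrosarcomas did not overlap with the 2 granulomas in 3 of the 10 genes, with Mtor and Rictor higher and Akt1s1 lower in fibrosarcoma, where 31.4% of all genes did not overlap. The fitted differences were 0.39 (SE 0.30) for Mtor, 0.68 (SE 0.37) for Rictor and -0.34 (SE 0.34) for Akt1s1, none of which passed the test.

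The third question was whether muscle away from the growth differed from that of untreated animals. In Spalax, limma and edgeR called 0% of 13909 genes between the 4 UIS and 4 control libraries, and DESeq2 called 516. Of the 10 genes, 5 had an unadjusted p under 0.05, against 16.6% of all genes. They were Deptor, 233 and 423 (granuloma) and 263 and 272 (fibrosarcoma) against 149, 164, 109 and 165, with 1.00 (SE 0.26, adjusted p = 0.188), and Mtor, 3841 to 6059 against 2444 to 3784, with 0.56 (SE 0.21, adjusted p = 0.252). Tsc1 was 1761 to 3198 against 1022 to 1750.2, with 0.58 (SE 0.25, adjusted p = 0.287). Akt1s1 was lower, 956 to 1237 against 1301 to 1761, with -0.46 (SE 0.18, adjusted p = 0.258), and so was Ddit4l, 2968 to 7250.2 against 5333 to 17809.8, with -0.97 (SE 0.40, adjusted p = 0.275). The groups did not overlap for Mtor, Deptor, Tsc1 and Akt1s1, 4 of the 10, where 12.7% of all genes did not overlap. DESeq2 called Deptor alone, with an adjusted p of 0.0204. The endothelium marker sums did not overlap either, 6753 to 8562 on the UIS against 8581 to 10885 in controls, and their part in these differences was not tested. The index type and the handling of the animals cannot be told apart from this contrast, which shares its UIS libraries with the comparison of sides and its controls with that of tolerant animals.

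In mouse, the same contrast gave 0% of 14792 genes by limma and by edgeR, and 342 by DESeq2 with none of the 10. Deptor was the 1 gene of the 10 with an unadjusted p under 0.05, against 11% of all genes, at 2668, 2472 and 2660.5 on the UIS and 4681, 3345 and 3742 in controls, a fold change of -0.58 (SE 0.23, adjusted p = 0.452). Its sign was thus opposite to that in Spalax. Deptor and Mlst8 did not overlap between the groups, 2 of 10, where 21.2% of all genes did not overlap. Mlst8 was 221, 222 and 238 against 290.1, 307 and 256. The 2 of 2 brown fat markers summed to 34925 to 56476 in mouse controls and to 12.96 to 19228 on the UIS, and the 3 of 3 white fat markers to 13522 to 41326 and 3924 to 20577. Their part in the Deptor difference was not tested.

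Tolerant animals were compared with controls to ask what remained in muscle that met 3MCA without a growth. Controls were all female and most tolerant animals male, so sex was largely mixed with this contrast, and its part was not tested. By limma and by edgeR 0% of 14020 genes were called, and by DESeq2 60, none of the 10. Ddit4l was the 1 of the 10 with an unadjusted p under 0.05, against 5.23% of all genes. It was 8144 in 2218, 2041 in 2251, 4071 in 2261 and 2396 in 2375 in tolerant animals and 13226, 5333, 17809.8 and 9055 in controls, with -1.53 (SE 0.49, adjusted p = 0.78), and the groups overlapped. None of the 10 genes was free of overlap, where 3.86% of all genes were. Mtor was 3401 ± 1361 (SD, n = 4) in tolerant animals and 3156 ± 571 (SD, n = 4) in controls, with 0.03 (SE 0.30, adjusted p = 0.994). Tolerant animal 2251 had the lowest Mtor, Akt1s1, Ddit4l, Tsc1 and Tsc2 of the 4, and also the highest fibroblast marker sum of the muscle libraries, 160001, and leukocyte marker sum, 10584. The endothelium marker sums of the groups did not overlap, 5813 to 8054 in tolerant animals against 8581 to 10885 in controls. The part of these markers in the values was not tested. Without that library, Ddit4l was at -1.26 (adjusted p = 0.817).

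Ordered by mean, the Spalax groups ran for Mtor from granuloma IS (953) and fibrosarcoma IS (1241) to control (3156), tolerant (3401), fibrosarcoma UIS (4373) and granuloma UIS (4949.6). Control and tolerant overlapped, as did tolerant and fibrosarcoma UIS and both UIS groups. Granuloma IS and fibrosarcoma IS did not overlap, nor did fibrosarcoma IS and control. For Ddit4 the order was fibrosarcoma UIS (836), control (969.7), tolerant (2634), fibrosarcoma IS (4092), granuloma IS (4696) and granuloma UIS (5932), and every neighbouring pair overlapped.

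The rest of the pathway was followed through 7 lists of 77 genes in all, chosen for their textbook roles. In granuloma, 72 were tested, 5 were called higher and 11 lower in IS, with a median log2 fold change of -0.63. In fibrosarcoma 8 of 72 were called higher and 21 lower, with a median of -0.42, and in mouse 11 of 75 were higher and 23 lower, with a median of -0.51. These shares stand beside 24.3%, 36.3% and 45.1% of all genes called, and 12.6%, 19% and 22.3% called lower. Nothing particular to the lists was tested. Over the 4 Spalax animals 9 of 72 were higher and 28 lower, where 51.4% of all genes were called and 25.9% called lower. In the other comparisons none was called by limma, where 3.95% of all genes were called for the species difference and 0% in the rest. The fibrosarcoma calls given for these lists all ended without either UIS library, where no gene was called, and few genes of any kind were called in granuloma without either IS library.

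**Figure D5:**
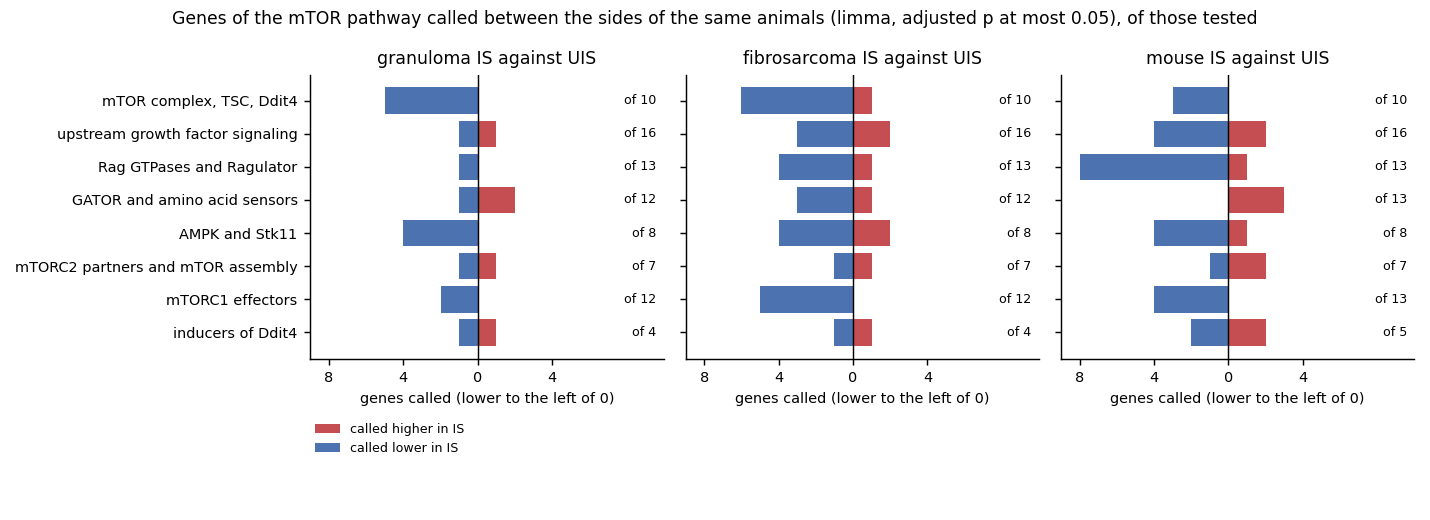
Number of genes called lower (blue, left of 0) and higher (red, right of 0) in IS against UIS for the 10 genes and the 7 pathway lists (y axis), with the number tested at the right. In mouse the list of Rag GTPases and Ragulator has 8 of 13 genes called lower, and no mTORC1 effector was called higher in any of the 3 comparisons. Of all genes, 12.6% were called lower in granuloma, 19% in fibrosarcoma and 22.3% in mouse. The lists were not tested as sets. Scaling by total reads moves all values up.

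Among the 16 genes that carry the growth factor signal to mTOR, from insulin receptor to Rheb, 2 were called higher and 4 lower in mouse, 2 and 3 in fibrosarcoma, and 1 and 1 in granuloma. In mouse, Akt2 (1444 to 2035 against 6766 to 9808, log2 fold change -2.27, SE 0.26, adjusted p = 0.00229), a kinase of the insulin pathway, and Insr (919 to 1288 against 2931 to 8081, log2 fold change -2.09, SE 0.40, adjusted p = 0.00825), the insulin receptor, were lower, and Pik3r2 (866 to 986 against 452 to 615, log2 fold change 0.84, SE 0.23, adjusted p = 0.0246), a regulatory subunit of PI3 kinase, was higher. Of the 13 genes of the Rag GTPases and Ragulator, which bring mTORC1 to the lysosome, 8 were lower and 1 higher in mouse. Rragd (75.9 to 949.5 against 5614 to 6706, log2 fold change -5.04, SE 0.94, adjusted p = 0.00765), a Rag GTPase, and Flcn (639 to 1061 against 2030.3 to 5093, log2 fold change -1.86, SE 0.40, adjusted p = 0.0119), folliculin, were lower, while Fnip2 (664 to 1351 against 206 to 353, log2 fold change 1.70, SE 0.37, adjusted p = 0.0119), a partner of folliculin, was higher. In fibrosarcoma 4 of the 13 were lower and 1 higher, and in granuloma 1 was lower. Of all genes, 45.1% were called in mouse, 36.3% in fibrosarcoma and 24.3% in granuloma. Those called lower were 22.3%, 19% and 12.6%.

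The list of amino acid sensors and GATOR complexes had 12 genes tested in Spalax, with 3 lower and 1 higher in fibrosarcoma, 1 lower and 2 higher in granuloma, and 3 of 13 higher in mouse. Of all genes, 36.3% were called in fibrosarcoma, 24.3% in granuloma and 45.1% in mouse. In fibrosarcoma Slc7a5 (404 to 727 against 28.4 to 53.3, log2 fold change 3.76, SE 0.53, adjusted p = 0.0108), the leucine transporter, was higher, and Sesn1 (214 to 577 against 1703 to 2535, log2 fold change -2.56, SE 0.56, adjusted p = 0.0282), a sestrin, and Nprl2 (146 to 169.7 against 657 to 772, log2 fold change -2.17, SE 0.29, adjusted p = 0.00941), a GATOR1 subunit, were lower. For AMPK, the energy sensor that acts on Tsc2 and Rptor proteins, and its activating kinase Stk11, 4 of 8 genes were lower in each comparison, and 2 were higher in fibrosarcoma, 1 in mouse and none in granuloma. In fibrosarcoma, subunit isoforms of AMPK were called in opposite directions, with Prkag3 (1.20 to 2.46 against 786 to 987, log2 fold change -8.32, SE 0.50, adjusted p = 0.00213) and Prkaa2 (54.0 to 113 against 1955 to 2265, log2 fold change -4.73, SE 0.44, adjusted p = 0.00505), both of them isoforms known from skeletal muscle, lower, and Prkaa1 (357 to 515 against 138 to 188, log2 fold change 1.41, SE 0.37, adjusted p = 0.0441) and Prkab1 (647 to 1511 against 262 to 308, log2 fold change 1.79, SE 0.48, adjusted p = 0.0458) higher.

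Downstream, 5 of 12 mTORC1 effectors were lower and none higher in fibrosarcoma, led by Tfeb (60.9 to 152 against 960.2 to 1217, log2 fold change -3.47, SE 0.53, adjusted p = 0.0124), a regulator of lysosomal genes, and Lpin1 (653 to 1048 against 2839 to 5055, log2 fold change -2.19, SE 0.41, adjusted p = 0.0202), a phosphatidate phosphatase. In granuloma 2 of 12 and in mouse 4 of 13 were lower. Of all genes, 19% were called lower in fibrosarcoma, 12.6% in granuloma and 22.3% in mouse. In either direction 36.3%, 24.3% and 45.1% were called, and these lists were not tested against those shares. Of the 7 mTORC2 partners and assembly factors, 1 was lower and 2 higher in mouse. Sgk1 (1070.1 to 2623 against 5374 to 6495, log2 fold change -1.71, SE 0.36, adjusted p = 0.0108), a kinase that mTORC2 activates, was lower, and Prr5 (135 to 237 against 48.9 to 71.3, log2 fold change 1.60, SE 0.38, adjusted p = 0.0168), an mTORC2 subunit, and Telo2 (350.0 to 397 against 155 to 221, log2 fold change 0.96, SE 0.28, adjusted p = 0.0298), which helps assemble mTOR, were higher. Of the 5 factors known to induce Ddit4, 2 were lower and 2 higher in mouse, where Ddit4 itself was not called. Epas1 (303 to 957 against 5410.2 to 6460.2, log2 fold change -3.41, SE 0.42, adjusted p = 0.00258), which encodes HIF-2 alpha, and Atf4 (4144 to 4475 against 7508 to 14968, log2 fold change -1.15, SE 0.32, adjusted p = 0.0278) were lower, and Hif1a (3541 to 5248 against 1191 to 1383, log2 fold change 1.72, SE 0.23, adjusted p = 0.0031) was higher. By total reads Atf4 was at -0.09, Sgk1 at -0.64 and Flcn at -0.79 in mouse and Sesn1 at -1.75 in fibrosarcoma, none of them called. In both Spalax comparisons 1 of the 4 inducers measured was higher and 1 lower.

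Across all libraries of a species, the genes whose log2 levels went most alike with Mtor in Spalax were Rdx (Pearson r = 0.971), Arih1 (0.969) and Herc2 (0.964), among 13257 genes and 16 libraries. Tsc2 ranked 9th of all genes, at 0.955, the highest of the other 9 genes. In mouse they were Art4 (0.967), Tmem106b (0.954) and Cyp2f2 (0.952), among 14494 genes and 9 libraries, and Tsc2 was at 0.827. For Ddit4 they were Arid5b (0.910), Cd3eap (0.901) and Pak1ip1 (0.894) in Spalax, where Mtor was at -0.421, and Usp20 (0.980), Rcor3 (0.977) and Map3k7 (0.976) in mouse, where Tsc1 was at 0.870. These are descriptions, since IS and UIS libraries share animals and muscle and growth form separate clusters.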

How the data were processed

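RNA-seq libraries from 16 Spalax and 9 mouse tissue samples were analysed from 1 table per species. Each table held a normalized signal for every gene and library, which the authors made by mapping reads with TopHat 1.4.1, counting them per gene with HTSeq and dividing the counts by 1 size factor per library with DESeq, per the submitters' processing notes (build GRCm38 named). The paper's methods name TopHat2 and, for Spalax, a published Spalax genome as the reference. The strand setting of the counting is not given in the sources used here. All values were whole multiples of 1 step per library within a tolerance of 0.001, so the read counts could be recovered.

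The paper's methods take genes called by both edgeR and DESeq2. Since the deposited values are scaled, these served as alternatives and log2(value + 1) was tested with limma 3.58.1 (trended eBayes), on genes that reached 10 in a number of libraries equal to the smallest group, within the groups compared, with Benjamini-Hochberg adjustment over all genes and a threshold of 0.05. The difference in response between species was tested over genes matched by symbol. A p-value sets a difference against the spread between these libraries, and 2 animals per group limit it. The main fits that compare IS with UIS held no term for the animal, so they treated the sides of 1 animal as independent. Alternatives were edgeR 4.0.16 (quasi-likelihood, TMM) and DESeq2 1.42.0 on the recovered reads, scaling by total reads, a pseudocount of 5, no filter, 1 model over all libraries of a species, leaving out each library, and the animal as a replicate block. The block pairs the sides of the same animal by the labels' specimen numbers, and the deviations of the paired sides from their group means correlated at 0.01 in granuloma, 0.00 in fibrosarcoma and 0.05 to 0.18 in mouse. The code was checked on simulated counts of independent libraries with known changes. These did not copy the spread or the pairing of the real libraries, so they do not show how the tests perform here.

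The 10 genes, the pathway lists and the marker lists were chosen with earlier results of these data known. Named besides them were up to 2 called genes with the largest rise and up to 2 with the largest fall per list, in the comparison of sides where the list had most calls, and the 3 genes most alike to Mtor and to Ddit4 in each species. Some genes named by this rule are not reported here. Of the 77 pathway genes, 5 were not matched by symbol in Spalax, among them Seh1l, Castor1, Castor2 and Eif4ebp1, and Castor1 and Castor2 in mouse. Of the Spalax gene names, 2387 held a comma in place of each lower-case t, among them those of Mtor, Rptor, Rictor, Deptor, Ddit4 and Ddit4l, and the letter was restored before matching.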

Additional observations from a re-analysis of the deposited data

Results flagged for a closer look

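In the 4 UIS libraries of Spalax with a growth, the library of 976 stood apart from the other 3 in 4 of the 10 genes by Dixon's ratio of gap to range, above the critical value of 0.829. Ddit4 was highest there at 11409, with a ratio of 0.962. Rictor was highest at 1988 (0.857) and Tsc1 at 3198 (0.837), and Rptor was lowest at 595.9 (0.836). In all, 40 sets of 1 gene and 1 group were examined, on normalized read counts and not on the log2 scale used in the fits. Chance alone gives such a ratio in about 5% of sets if the values are normally distributed. Whether these were was not tested, so that share may not hold here. The genes of 1 library are not independent of each other.

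In normalized read counts, the change of Ddit4 from UIS to IS differed in sign between Spalax fibrosarcoma and mouse in every animal. It was 2.38 and 2.19 on the log2 scale in the 2 Spalax and -0.42, -0.84 and -2.96 in the 3 mice. The sign in mouse 1019 depended on the scaling. As a share of total reads, that mouse was higher on the IS (651 of 24639207 reads) than on the UIS (373 of 22143060). The tested difference was 3.69 and did not pass (limma, adjusted p = 0.328, SE 2.01).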

How the results depend on the processing

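Of the 100 results for 1 gene and 1 comparison, 22 were called. Over 1310 alternative values, 1234 stayed on their side of the threshold (69 of these, called in neither setting, changed sign), 53 lost and 18 gained a call, and 5 reversed a sign. All 5 were by total reads: Rptor over the 4 Spalax animals to 0.14, and in mouse Mtor to 0.62, Rptor to 0.92, Mlst8 to 0.96 and Tsc2 to 0.11. The 5 granuloma calls became 3 with edgeR, 3 by total reads and 3 with no filter, and ranged from 0 to 4 when 1 library was left out. The 7 fibrosarcoma calls ranged from 0 (without either UIS library) to 8. The 3 mouse calls became 4 by DESeq2, 6 by total reads and 2 to 5 without 1 library. For the species difference, DESeq2 called 2 of the 10 genes, total reads 1 and leaving out a library 0 to 1, and DESeq2 called 1 for UIS against control in Spalax. With the replicate block the counts were 4 in granuloma, 7 in fibrosarcoma, 6 over the 4 Spalax animals and 2 in mouse, and no other call changed. Over all genes, granuloma had 3581 calls by limma, 5383 by DESeq2, 6314 with 1 model over all Spalax libraries, 2978 by edgeR and 98 to 2882 without 1 library. Fibrosarcoma had 5339, and 0 to 8397 without 1 library. The species difference had 438, 1711 by DESeq2, 38 with the replicate block and 4 to 778 without 1 library. By total reads, the share of calls that were higher moved from 48.0%, 47.8%, 49.7% and 50.5% to 75.3%, 76.2%, 75.7% and 82.9% in granuloma, fibrosarcoma, the 4 Spalax animals and mouse, and from 50.9% to 34.0% for the species difference. The cause was not tested. The lowest value of the 10 genes was 17.6, which rested on 34 reads, and each kind of growth had 2 or 3 animals.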

Other observations

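Over the 6 mouse muscle libraries, Ddit4 was compared with each of the other 9 genes on the log2 scale. The highest correlation was with Tsc1 (Pearson r = 0.986, exact permutation p = 0.00556, adjusted over the 9 relations p = 0.05), with Spearman's rho of 0.943 (exact permutation p = 0.0167, adjusted 0.15). It was 0.976 without the libraries farthest from the median of Ddit4, the UIS of 1019 and 512. Leaving out these libraries and splitting by index type were chosen after seeing the data. No value within an index type could be had, since each type held 3 libraries. For Rictor, r was 0.975 (exact permutation p = 0.0306, adjusted 0.138) and rho 0.714. Over the 12 Spalax muscle libraries, none of the 9 relations had an adjusted p below 0.45. Rictor gave r = 0.591 (permutation p = 0.0881) and rho = 0.021, and r was -0.762 without the UIS library of 976 and the tolerant library of 2375, and 0.183 within the 8 dual-index libraries.

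The 2 tolerant animals sampled at 30 months, 2218 and 2375, had Ddit4 at 2354 and 6701, and the 2 sampled at 18 months, 2251 and 2261, at 830.3 and 651.5. This split was seen after the values were known and was not tested. On the UIS of the fibrosarcoma animals, Ddit4 was 877 at 30 months (2230) and 795 at 18 months (2240).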
